A study of Mus musculus with 18 samples.

Results

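The comparison described here is between livers that lack the mineralocorticoid receptor (MR) in hepatocytes and control livers, both taken after myocardial infarction (MI). It covers 6 of the 18 livers of the study. The 3 HMRKO + MI livers came from hepatocyte MR knockout mice, which carry MR alleles flanked by loxP sites together with Cre recombinase under the albumin promoter, and are labelled MR-/-. The 3 LC + MI livers came from littermate controls, which carry the same floxed alleles without Cre and which the sample labels call wild type. All were C57BL/6 mice of 12 weeks, and RNA of the whole liver was sequenced 1 day after the operation. The infarct was made in male mice by tying off a coronary artery for good. The labels name neither operation nor time for the MI livers, which were placed by their sample titles and the study's description, and no label ties the livers to separate animals, so p-values measure the spread between these samples. HMRKO + sham and LC + sham livers, 3 of each, were used for the spread between livers and for the test of whether the genotype difference depended on the operation. Of 50600 genes in the count table, the 14266 with enough counts were tested.

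MR is a nuclear receptor that binds aldosterone and, where it is not protected by an inactivating enzyme, glucocorticoids. It is best known from the kidney, where it controls genes of sodium transport, and it shares DNA target sequences with the glucocorticoid receptor. Fibroblast growth factor 21 (FGF21) is a hormone released by hepatocytes in fasting and in several kinds of cell stress, and it acts on fat, brain and heart. The liver answers tissue injury elsewhere in the body with the acute-phase response, in which interleukin-6 acts through STAT3 to raise the synthesis of plasma proteins such as fibrinogen.

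Several features of the livers bear on what follows. Total counts per liver were 23438424 to 28001094 in LC + MI and 19098704 to 28945526 in HMRKO + MI. Replicate 1 of LC + MI stood apart, with 18.9% of its counts from mitochondrially encoded genes whereas this share was 10.9% and 12.3% in replicates 2 and 3 and 8.68 to 9.10% in HMRKO + MI, so values without it are given beside the counts. Its log2 levels correlated at 0.9745 and 0.9769 with replicates 2 and 3, which correlated with each other at 0.9919. With the sham livers it correlated at 0.9638 to 0.9756, and replicates 2 and 3 at 0.9660 to 0.9750. The cause was not tested. The genotype difference after MI also ran with the GC content of transcripts, as the plot by GC content shows. Over all genes the biological coefficient of variation between livers of a group was 0.209. Hepatocyte markers were abundant in every liver (115659 to 123523 CPM (counts scaled by library size) in sum over 25 markers in LC + MI and 130440 to 131811 in HMRKO + MI). In whole liver, fewer cells of a type and less RNA per cell cannot be told apart, and because Cre was driven by the albumin promoter, other liver cells keep MR.

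**Figure D1:**
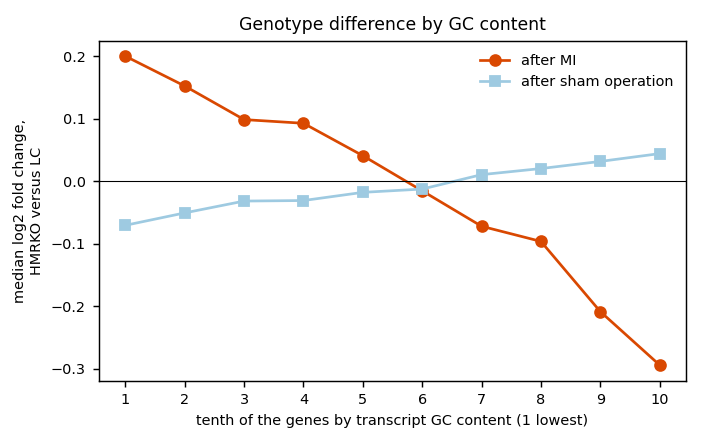
Median log2 fold change of HMRKO over LC livers (y axis) in 10 bins of genes by GC content of their transcripts (x axis, 1 the lowest), after MI and after sham operation, 3 livers per group. After MI the median went from 0.20 in the bin of lowest GC content to -0.29 in that of highest, and after sham operation from -0.07 to 0.04.

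The targeted gene was examined first. Nr3c2 (ENSMUSG00000031618), which encodes MR, was at 3.56, 2.13 and 1.90 CPM in LC + MI against 0.895, 1.10 and 0.913 CPM in HMRKO + MI. The groups did not overlap, and the level was 2.56-fold lower in HMRKO + MI (log2 fold change -1.36 ± 0.29 (SE), adjusted p = 0.00505 from edgeR). Counts per gene do not separate the deleted exons from the rest of the transcript, so the remaining level says nothing of intact receptor. After sham operation the levels were 5.67 ± 0.999 CPM in LC and 3.08 ± 0.619 CPM in HMRKO (mean ± SD, n = 3), with a log2 fold change of -0.88 that did not pass the test over all genes (adjusted p = 0.471).

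Fgf21 (ENSMUSG00000030827) was at 1.80, 3.42 and 1.63 CPM in LC + MI against 22.5, 13.6 and 9.84 CPM in HMRKO + MI, which is 6.68-fold higher (log2 fold change 2.74 ± 0.40, adjusted p = 0.00110). Every HMRKO + MI liver lay above every LC + MI liver. After sham operation it was at 0.425 ± 0.285 CPM in LC and 0.495 ± 0.193 CPM in HMRKO. The promoter of Fgf21 is shown because it holds a sequence known as the amino acid response element, to which the stress factor ATF4 binds, whose other target genes are described further on. The 250 bases before its start, from RefSeq on GRCm38.p6, are chr7:45615491-45615740 on the minus strand, with the element in capitals.
Fgf21: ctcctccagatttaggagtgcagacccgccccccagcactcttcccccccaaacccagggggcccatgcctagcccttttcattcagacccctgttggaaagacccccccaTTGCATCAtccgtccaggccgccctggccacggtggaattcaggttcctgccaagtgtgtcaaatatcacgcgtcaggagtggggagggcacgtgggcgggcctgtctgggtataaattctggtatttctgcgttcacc

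The other parts of the MR and FGF21 axis moved less. Stat3, the transcription factor downstream of interleukin-6, was at 118, 114 and 113 CPM in LC + MI against 188, 169 and 193 CPM in HMRKO + MI and rose by a log2 fold change of 0.68 (adjusted p = 0.0125). Ncor1, a corepressor of nuclear receptors, was at 44.2 ± 6.42 and 38.8 ± 3.47 CPM in LC + MI and HMRKO + MI (adjusted p = 0.344), and its partner histone deacetylase Hdac3 at 46.5 ± 7.30 and 35.3 ± 2.60 CPM (adjusted p = 0.0558). Neither passed the test. The Hdac3 livers did not overlap, which was so for 48.8% of all genes tested. The interleukin-6 receptor chains Il6ra (log2 fold change 0.33, adjusted p = 0.0652) and Il6st (0.11, adjusted p = 0.642) did not pass either. The glucocorticoid receptor gene Nr3c1 was at 18.8 ± 2.45 and 20.9 ± 1.84 CPM, and Hsd11b1, whose enzyme regenerates active glucocorticoid, at 200.03 ± 15.2 and 189 ± 31.5 CPM, with adjusted p of 0.429 and 0.738. Hsd11b2, whose enzyme inactivates glucocorticoid in MR target tissues, had 0 counts in all 12 livers. Of 8 genes of the corepressor complex, 1 rose, Tbl1xr1, at 30.7, 33.7 and 27.1 CPM in LC + MI against 69.8, 48.8 and 55.4 CPM in HMRKO + MI.

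The comparison over all genes asked how widely livers without hepatocyte MR differed from control livers after infarction. It also holds any genotype difference present without infarction, and the interaction is given further on. Of the 14266 genes, 653 (4.58%) were called higher and 1109 (7.77%) lower in HMRKO + MI than in LC + MI, at an adjusted p under 0.05 and a log2 fold change beyond 1. At any fold change 2089 genes (14.6%) were higher and 2311 (16.2%) lower, and these shares are the background for the counts of each gene group below. The median log2 fold change of all genes was -0.0069. HMRKO + MI and LC + MI livers did not overlap in 6960 genes (48.8%), among them 5239 of the 12504 not called. That share is the background wherever groups are said to be apart. Among the called genes, 116 of those higher and 291 of those lower differed more than 4-fold. The genes called higher together made up 57146 CPM in LC + MI against 155349 CPM in HMRKO + MI, and the genes called lower fell from 57946 to 22398 CPM. Both sets were called in these same livers, so the direction of these sums follows from the calls. Those called higher had a median GC content of 48.9% and a median transcript length of 1728 bases, against 53.2% and 1244 bases for those called lower and 50.5% and 1408 bases for the rest.

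Without LC + MI replicate 1, 417 genes were called higher and 636 lower, of which 371 and 606 were among those called with it, and the shares at any fold change were 8.21% and 9.40%. With the GC trend taken out, 638 were higher and 1044 lower, of which 532 and 929 were shared.

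**Figure D2:**
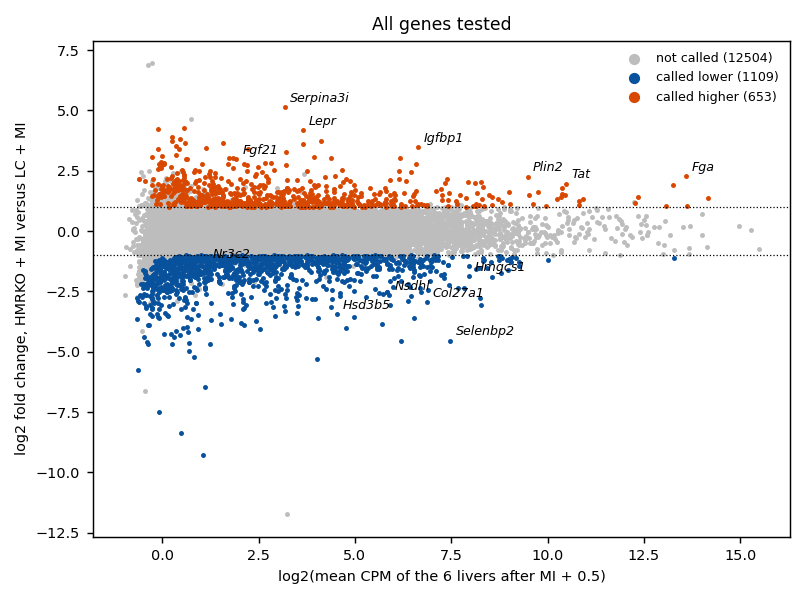
Log2 fold change of HMRKO + MI over LC + MI (y axis) against the mean level of the 6 livers (x axis, log2(CPM + 0.5)) for the 14266 genes tested, 653 called higher in orange and 1109 called lower in blue, with dotted lines at a log2 fold change of 1 and -1. Fga and Plin2 stand out among abundant genes that were higher, and Selenbp2 among those lower.

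The 12 largest rises and falls were taken among called genes whose groups did not overlap, so that their groups are apart by the choice. The rises, Fgf21 among them, included genes of energy balance, secreted proteins and lipid storage. The leptin receptor gene Lepr was at 0.501, 2.25 and 1.00 CPM in LC + MI against 33.6, 28.99 and 6.39 CPM in HMRKO + MI, 18.03-fold higher (adjusted p = 0.00131). Igfbp1, a secreted binding protein of insulin-like growth factors, was at 12.4, 30.5 and 6.16 CPM in LC + MI against 271, 151 and 127 CPM in HMRKO + MI (11.2-fold, adjusted p = 0.00634). In both genes HMRKO + MI replicate 3 was the lowest of its group. Serpina3i, a serine protease inhibitor of the acute-phase Serpina3 cluster, rose 34.9-fold, from 0.250, 0.603 and 0.519 CPM to 37.5, 8.36 and 4.06 CPM, with replicate 1 far above the other HMRKO + MI livers. Cidec, a lipid droplet protein, was at 5.46, 27.8 and 13.5 and then 137, 67.0 and 177 CPM (8.14-fold). Without LC + MI replicate 2 the fold was 29.4 for Lepr, 19.8 for Igfbp1 and 13.3 for Cidec, and without HMRKO + MI replicate 1 it was 13.3 for Serpina3i.

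Also among these were Slc34a2, a sodium phosphate cotransporter (1.503, 1.97 and 1.49 against 19.3, 13.3 and 14.97 CPM), and Gpcpd1, a glycerophosphocholine phosphodiesterase (20.8, 24.7 and 28.2 against 146, 179 and 178 CPM). For both genes the gap between the groups exceeded the range within either. Gpcpd1 varied more after sham operation, at 33.8, 143 and 45.6 CPM in LC and 85.6, 146 and 65.1 CPM in HMRKO. Bmper, a secreted regulator of bone morphogenetic proteins, rose 12.3-fold, Egr1, an immediate early transcription factor, 8.30-fold and Pspc1, a paraspeckle protein, 5.84-fold, with adjusted p from 0.000235 to 0.00294. The fold of Egr1 was 13.5 without LC + MI replicate 2. Rgs16, a regulator of G protein signaling, ran from 0.852, 4.82 and 1.38 CPM to 46.4, 40.8 and 7.16 CPM (adjusted p = 0.0296), and it did not pass the test without LC + MI replicate 1 (adjusted p = 0.102) or 3 (0.0878), or without HMRKO + MI replicate 1 (0.0729) or 2 (0.0677).

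The 12 largest falls included the hydroxysteroid dehydrogenases. Hsd3b2, Hsd3b3 and Hsd3b5, which encode steroid dehydrogenases, were 39.6-fold, 16.1-fold and 10.9-fold lower. Hsd3b2 was at 60.8, 12.5 and 19.2 CPM in LC + MI against 0.671, 0.730 and 0.913 CPM in HMRKO + MI. Replicate 1 was the highest of the LC + MI livers, and without it Hsd3b2 was 20.5-fold and Hsd3b3 10.6-fold lower. Hsd3b5, a gene of the male mouse liver, was at 65.4, 26.1 and 33.8 CPM and then 0.895, 3.10 and 7.41 CPM, and was 19.9-fold lower without HMRKO + MI replicate 3. These paralogs are near copies of each other, so the share of reads of each is uncertain.

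Apol9b and Apol9a, a pair of closely similar apolipoprotein L genes, were 14.3-fold and 8.94-fold lower, and their shares of reads are likewise uncertain. Apol9b was at 198, 30.5 and 59.1 CPM in LC + MI against 4.92, 6.46 and 8.63 CPM in HMRKO + MI, and Apol9a at 70.4, 13.1 and 25.6 and then 3.24, 4.02 and 4.87 CPM. Without LC + MI replicate 1, the highest in both, they were 6.71-fold and 4.78-fold lower. Selenbp2, a selenium-binding protein gene, was at 845, 92.4 and 82.5 CPM in LC + MI against 13.3, 20.5 and 9.74 CPM in HMRKO + MI, and it did not pass the test without LC + MI replicate 1 (adjusted p = 0.0512), whose level was far above the others. The remaining large falls were Col5a3, a fibrillar collagen, Mapk15, an atypical MAP kinase, Keg1, Tk1, the thymidine kinase of the nucleotide salvage pathway, and Adrb3, the beta-3 adrenergic receptor. They were 9.86- to 12.2-fold lower, with adjusted p from 0.00119 to 0.00272. LC + MI replicate 1 was also the highest here, as with Col5a3 at 340.5, 78.1 and 93.0 CPM against 7.10, 10.3 and 24.4 CPM in HMRKO + MI. Without it the falls were 6.14-fold for Col5a3, 5.80-fold for Mapk15, 5.79-fold for Tk1 and 6.06-fold for Adrb3, and without HMRKO + MI replicate 3 they were 20.3-fold for Keg1 and 19.4-fold for Col5a3.

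**Figure D3:**
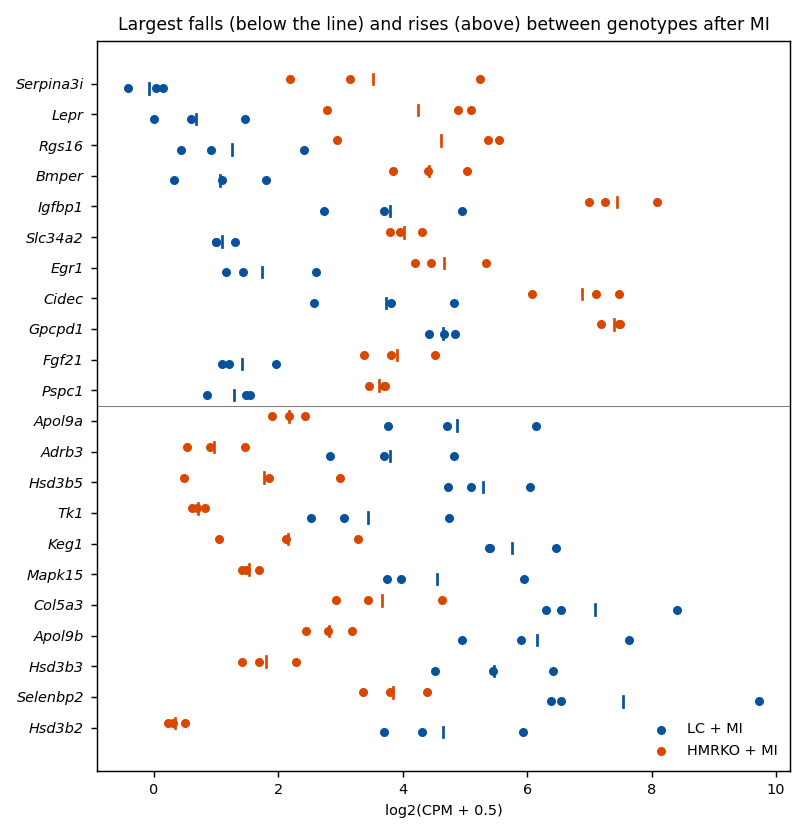
Levels of 11 of the 12 genes with the largest rise (above the line) and 11 of the 12 with the largest fall (below it) among called genes whose groups did not overlap, as log2(CPM + 0.5) on the x axis. Points are the 3 livers of LC + MI (blue) and HMRKO + MI (orange), vertical bars their means. The genes were chosen for this gap, so that the groups are apart by the choice.

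Counted in CPM, the largest gains among called genes whose groups did not overlap were in the fibrinogen genes. The 3 chains of fibrinogen, the precursor of fibrin in blood clots, rose together. Fga was at 2542, 5494 and 4679.7 CPM in LC + MI against 15576, 23026 and 22439 CPM in HMRKO + MI, 4.80-fold higher (adjusted p = 0.000823). Fgb went from 10192 ± 2375 to 26369.7 ± 2387 CPM (2.59-fold) and Fgg from 4105 ± 998 to 15360.5 ± 1354 CPM (3.74-fold). That the groups were apart for all 3 chains follows from this choice. Large losses in CPM among called genes included mitochondrial ribosomal RNA, Gcgr and Nlrp6, given further on, and Reep6, a protein of the endoplasmic reticulum (from 875 ± 320.5 to 358 ± 94.4 CPM), Tmem205, a membrane protein (from 751 ± 239.6 to 311 ± 4.22 CPM), and Sema4g, a semaphorin (from 593 ± 286 to 159 ± 30.3 CPM). Of 39 acute-phase genes tested, 12 rose and 1 fell, with a median log2 fold change of 0.26 (11 rose and 0 fell without LC + MI replicate 1).

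Other acute-phase genes that rose were Saa1 and Saa2, the serum amyloid A genes (2.07-fold and 2.06-fold, with reads that near copies may share), Serpina3n (2.22-fold) and Serpina3m (2.80-fold). Serpina3m was at 254, 465 and 435 CPM in LC + MI against 1093, 1085 and 1053 CPM in HMRKO + MI. Steap4, a metalloreductase induced by inflammation, rose 4.49-fold from 63.6, 67.8 and 51.9 to 335, 229 and 259 CPM. Other well-known acute-phase genes did not follow. Haptoglobin (Hp, log2 fold change 0.20, adjusted p = 0.495), C-reactive protein (Crp, 0.15, 0.743), orosomucoid (Orm1, 0.26, 0.476), lipocalin-2 (Lcn2, 0.47, 0.402) and hepcidin (Hamp, 0.35, 0.398) did not pass the test.

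In the coagulation list 8 of 33 genes rose and 6 fell (6 and 4 without LC + MI replicate 1). Besides the rise of fibrinogen, Klkb1, which encodes plasma prekallikrein, fell from 370.2, 106 and 129 CPM to 30.9, 37.5 and 42.7 CPM (5.44-fold lower, adjusted p = 0.00126, but 3.17-fold without LC + MI replicate 1). Complement genes moved both ways, 4 of 36 higher and 7 lower, but 3 and 1 without LC + MI replicate 1. Masp1, a protease of the lectin pathway (2.16-fold), and the regulator C4bp (1.69-fold) rose. C1s1, a protease of the classical pathway, fell (2.35-fold lower), and so did Hc, which encodes complement C5 (2.15-fold lower, adjusted p = 0.0788 without LC + MI replicate 1 and 0.0625 without HMRKO + MI replicate 1). C3 was at 7219 ± 834 and 9763 ± 1316 CPM (adjusted p = 0.0819).

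Genes of the ATF4 response, which cells switch on when amino acids are short or the endoplasmic reticulum is stressed, passed the test mainly as rises. Of 30 tested, 13 rose and 1 fell, with a median log2 fold change of 0.42 (10 and 1 without LC + MI replicate 1, 14 and 0 with the GC trend taken out). Chac1, which degrades glutathione, was at 4.81, 4.38 and 2.56 CPM in LC + MI against 30.3, 19.8 and 15.8 CPM in HMRKO + MI (5.64-fold, adjusted p = 0.00141). Mthfd2, an enzyme of mitochondrial folate metabolism, was at 1.10, 2.77 and 2.18 and then 12.1, 9.31 and 8.22 CPM (4.84-fold), and Trib3, a pseudokinase, rose 2.73-fold. Asns, asparagine synthetase, was at 3.26, 4.70 and 4.08 CPM in LC + MI against 11.1, 18.04 and 12.1 CPM in HMRKO + MI. All livers were apart in these 4 genes. Atf4 itself was at 143 ± 29.8 and 175 ± 20.1 CPM (log2 fold change 0.29, adjusted p = 0.219) and its relative Atf5 at 601 ± 80.9 and 592 ± 77.6 CPM (-0.02, adjusted p = 0.958), so that neither transcript passed the test.

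The letters TGATGNAA, searched on both strands from 250 bases before to 50 bases after the start, were present in 9 of the 25 promoters of this list held in the RefSeq table (36.0%) and in 2.91% of the promoters of all 10565 tested genes matched. The list was written as targets of ATF4, so that this share describes the list and not its change. Among members past the test, 6 of 12 held it, namely Fgf21, Chac1, Trib3, Pck2, Gars and Asns. Below are the stretches of Chac1 (chr2:119351029-119351076, plus strand), Pck2 (chr14:55540143-55540190, plus strand) and Asns (chr6:7693210-7693252, minus strand) to set beside that of Fgf21, on GRCm38.p6 with the element in capitals.
Chac1: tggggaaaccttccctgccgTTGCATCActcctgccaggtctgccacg
Pck2: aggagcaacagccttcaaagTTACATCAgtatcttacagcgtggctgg
Asns: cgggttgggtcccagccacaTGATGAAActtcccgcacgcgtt

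Chaperones of the endoplasmic reticulum rose in part. In the unfolded protein response list 7 of 36 genes rose and 2 fell (5 and 2 without LC + MI replicate 1), beside the 14.6% and 16.2% of all genes. Hspa5, which encodes the chaperone BiP, was at 338, 911 and 887 CPM in LC + MI against 2387, 1617 and 1697 CPM in HMRKO + MI (2.67-fold, adjusted p = 0.0107), and Hsp90b1, which encodes GRP94, rose 2.50-fold. Xbp1, the transcription factor of the response, went from 177, 189.6 and 175 to 509, 441 and 405 CPM (2.50-fold), and Derl1, a channel component for retrotranslocation, rose 1.52-fold. Derl2 and Edem2, also of the degradation route, fell 1.42-fold and 1.45-fold. The endoplasmic reticulum stress response element, searched as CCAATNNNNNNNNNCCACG, was in 9 of 29 promoters of the list (31.0%) and in 0.18% of all promoters. Among the members past the test it was in 2 of 8, Hspa5 (chr2:34772005-34772063, plus strand) and Hsp90b1 (chr10:86705618-86705676, minus strand), shown with the element in capitals.
Hspa5: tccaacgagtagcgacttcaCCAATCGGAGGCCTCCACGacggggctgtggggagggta
Hsp90b1: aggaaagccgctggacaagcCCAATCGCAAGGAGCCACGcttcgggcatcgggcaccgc

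Of 31 heat shock and cochaperone genes, 8 fell and 3 rose (5 and 2 without LC + MI replicate 1). Fkbp4, a cochaperone of steroid receptors in the HSP90 complex, was at 194, 154 and 165 CPM in LC + MI against 21.5, 38.3 and 39.9 CPM in HMRKO + MI, 5.13-fold lower (adjusted p = 0.000235, the smallest in the comparison and shared with other genes). Hsph1 and Stip1, which also assist HSP70 and HSP90, fell by 1.75 and 0.95 on the log2 scale, and Hspa9, the mitochondrial HSP70, rose 2.18-fold. Hsp90aa1 was at 187 ± 65.7 and 112 ± 8.59 CPM (adjusted p = 0.0674).

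Most genes of ribosome assembly, translation factors and tRNA charging were higher in HMRKO + MI, but few ribosomal proteins. In ribosome biogenesis 34 of 59 genes rose and 0 fell, with a median log2 fold change of 0.62 (26 and 0 without LC + MI replicate 1). Ddx21, a helicase of ribosomal RNA processing, was at 9.17, 20.7 and 18.8 and then 40.4, 40.9 and 36.1 CPM (2.40-fold), and Ltv1, an export factor of the small subunit, at 6.81, 9.33 and 8.13 and then 20.1, 17.7 and 15.9 CPM (2.21-fold). Of these genes 6 passed a log2 fold change of 1. Translation factors rose in 31 of 53 and fell in 2 (16 and 0 without LC + MI replicate 1), among them Eif4g1, the scaffold of the cap-binding complex (1.89-fold), Eif2b4 (1.72-fold) and Eif2b3 (2.001-fold) of the eIF2 exchange factor, and Eif3d (1.65-fold).

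Aminoacyl-tRNA synthetases, which charge tRNAs with amino acids, rose in 12 of 23 and fell in 0, but in 5 without LC + MI replicate 1 and in 8 with only the 6 livers in the fit. Iars (2.61-fold) and Lars (2.11-fold), for isoleucine and leucine, rose. Lars was at 18.6, 29.1 and 28.2 CPM in LC + MI against 55.0, 54.6 and 50.5 CPM in HMRKO + MI. Of 85 cytosolic ribosomal proteins, 4 rose and 10 fell, and 1 and 0 without LC + MI replicate 1, with a median of -0.12. Splicing factors rose in 25 of 80 and fell in 8 (13 and 4 without that liver).

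Mitochondrial components were lower more often than higher. Of 79 nuclear-encoded subunits of the respiratory chain, 20 fell and 6 rose (10 and 1 without LC + MI replicate 1), and of 78 mitochondrial ribosomal proteins, 24 fell and 8 rose (14 and 2). The complex I subunit Ndufa13 was at 166, 169 and 159.5 CPM in LC + MI against 98.6, 83.3 and 77.6 CPM in HMRKO + MI. Mrps21, of the small mitochondrial ribosomal subunit, was at 69.1, 44.9 and 48.3 and then 23.1, 24.1 and 20.2 CPM. The groups did not overlap in either gene. Of the 15 genes encoded in mitochondria, 4 fell and 0 rose, but 1 fell without LC + MI replicate 1, in which mitochondrial counts were highest. mt-Rnr1, a mitochondrial ribosomal RNA, was at 1323, 368 and 362 CPM in LC + MI against 232, 229 and 149.7 CPM in HMRKO + MI (3.36-fold lower, 1.79-fold without LC + MI replicate 1), and mt-Co1 at 88029, 37317 and 46479 and then 35267, 31923 and 34352 CPM (adjusted p = 0.0714).

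**Figure D4:**
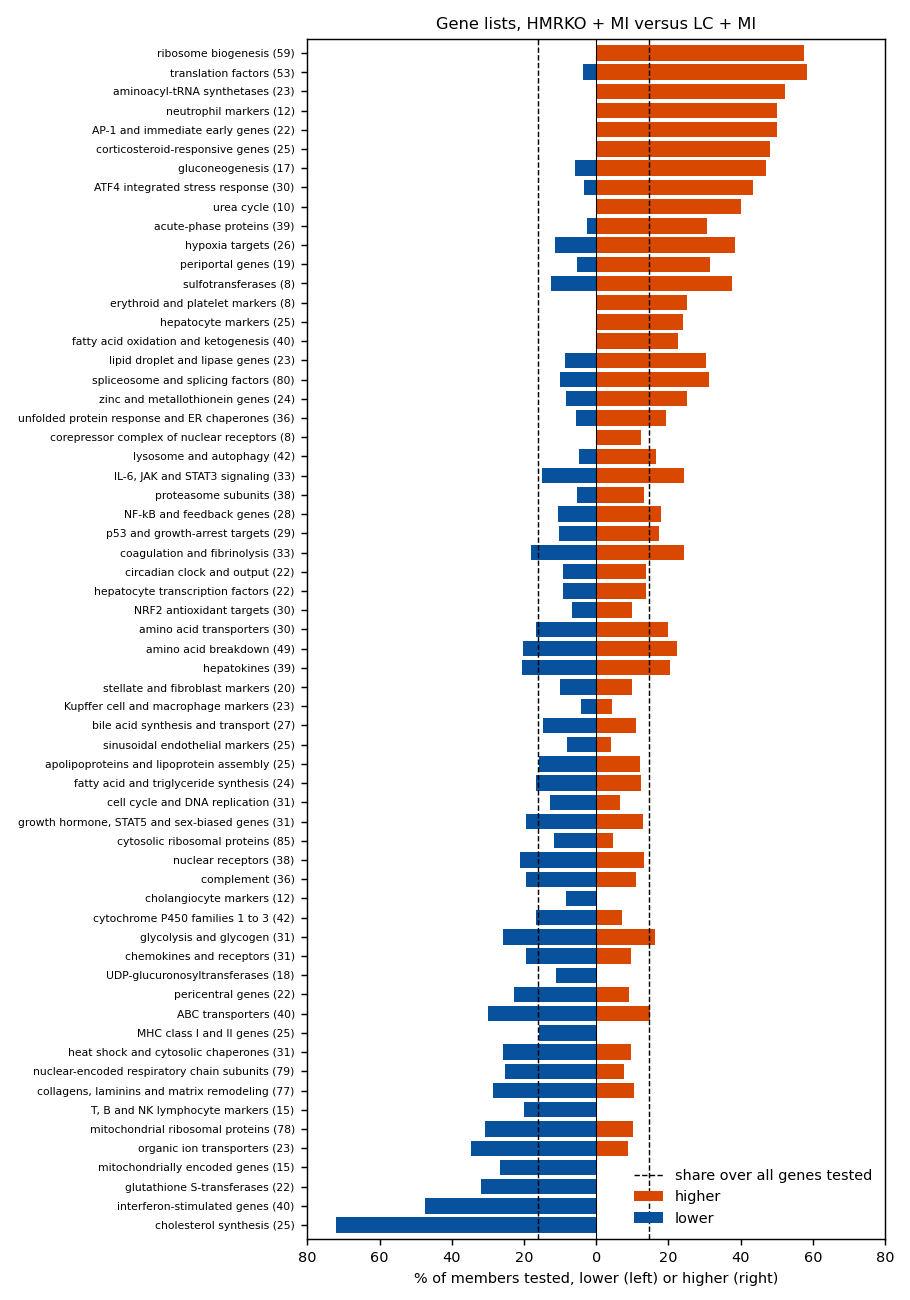
Share of each gene list that was higher (orange, to the right) or lower (blue, to the left) in HMRKO + MI than in LC + MI at an adjusted p under 0.05, in percent of the members tested (number in brackets), for lists with at least 8 members tested. Dashed lines mark the 14.6% and 16.2% of all genes tested. Ribosome biogenesis and translation factors lie at the top, cholesterol synthesis with 18 of 25 lower at the bottom.

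Several gluconeogenesis genes were higher. In gluconeogenesis 8 of 17 genes rose and 1 fell, with a median log2 fold change of 0.61 (5 and 1 without LC + MI replicate 1). Fbp1, fructose-1,6-bisphosphatase, was at 142, 303 and 176 CPM in LC + MI against 383, 522 and 747 CPM in HMRKO + MI (2.66-fold). Gpt2, a mitochondrial alanine transaminase, rose 2.48-fold, and Tat, tyrosine aminotransferase, went from 388, 768 and 600.0 to 2522, 1654 and 2648 CPM (3.89-fold, adjusted p = 0.00103). Pck1 (1373 ± 449 and 1906 ± 695 CPM, adjusted p = 0.221) and G6pc (139 ± 93.8 and 290.0 ± 60.0 CPM, adjusted p = 0.226) did not pass. Gcgr, the glucagon receptor, fell from 1093, 553 and 624 CPM to 186, 274 and 283 CPM (3.05-fold lower).

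The glycolysis and glycogen list was split, 5 of 31 higher and 8 lower (2 and 6 without LC + MI replicate 1). The falls included Pfkfb1, the liver enzyme that sets fructose-2,6-bisphosphate (47.9, 47.9 and 65.5 against 15.04, 17.2 and 23.04 CPM) and Ppp1r3b, which targets a phosphatase to glycogen (249, 205 and 278 against 69.8, 79.5 and 62.7 CPM). The groups were apart in both genes. Ldha, lactate dehydrogenase A, rose 2.50-fold. Pklr, the liver pyruvate kinase, was at 282 ± 138 and 298 ± 48.5 CPM (adjusted p = 0.913).

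Some enzymes that dispose of nitrogen as urea were higher in HMRKO + MI than in LC + MI. Of 10 urea cycle genes, 4 rose and 0 fell (3 without LC + MI replicate 1). Arg1, arginase, was at 773, 1142 and 1304 CPM in LC + MI against 2717, 2166 and 2755 CPM in HMRKO + MI (2.37-fold, adjusted p = 0.00161). Ass1 and Asl, which make and cleave argininosuccinate, rose 2.17-fold and 2.03-fold, and Cps1, carbamoyl phosphate synthetase, 1.99-fold. Cps1 did not pass without LC + MI replicate 1 (adjusted p = 0.0778) or HMRKO + MI replicate 3 (0.0924), nor did Asl without HMRKO + MI replicate 3 (0.0575). Amino acid breakdown went both ways, 11 of 49 higher and 10 lower (7 and 4 without LC + MI replicate 1). Mat1a, which makes S-adenosylmethionine, was at 2159, 3092 and 3200.4 and then 6418, 7255 and 9132 CPM (2.70-fold), Aass, of lysine breakdown, rose 2.95-fold, and Amt, of the glycine cleavage system, fell 4.08-fold from 65.0, 29.03 and 38.0 to 9.17, 11.54 and 11.6 CPM.

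Cholesterol synthesis was the list with the largest share of falls. Of 25 genes tested, 18 fell (72.0%) and 0 rose, with a median log2 fold change of -1.20, against 15 without LC + MI replicate 1 and 19 with the GC trend taken out. Nsdhl, of the late pathway, was at 151, 70.0 and 83.2 CPM in LC + MI against 9.62, 22.8 and 15.9 CPM in HMRKO + MI (6.27-fold lower, adjusted p = 0.000707). Dhcr7, the last reductase, was at 164, 70.2 and 80.8 and then 11.6, 31.4 and 20.7 CPM. Mvk, mevalonate kinase, was 3.97-fold lower and Cyp51, lanosterol demethylase, 3.61-fold lower. Hmgcs1, the cytosolic synthase at the head of the pathway, was at 525, 302 and 347 CPM in LC + MI against 46.9, 147 and 130.3 CPM in HMRKO + MI. In each of these genes HMRKO + MI replicate 1 had the lowest level, and the groups did not overlap.

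Sqle, squalene epoxidase, was at 69.9 ± 6.63 and 46.0 ± 19.5 CPM in LC + MI and HMRKO + MI (adjusted p = 0.140) and did not pass. Srebf2, the transcription factor of the pathway, had a log2 fold change of -0.24 (adjusted p = 0.331). Its known target Insig1, which holds the pathway back when sterols are plentiful, fell from 239, 245 and 266 to 36.7, 119 and 125 CPM. Srebf1, the relative that controls fatty acid synthesis, fell 2.04-fold. Of the 25 members 17 (68.0%) had a promoter in the table, and Hmgcs1 was the 1 of these 17 whose window held the sterol regulatory element (searched as TCACNCCAC, found in 1.48% of all promoters). Its stretch is chr13:119690194-119690242, plus strand, with the element in capitals.
Hmgcs1: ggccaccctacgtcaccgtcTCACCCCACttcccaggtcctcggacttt

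Several genes of fat storage and fat oxidation rose in HMRKO + MI. Plin2, the main coat protein of lipid droplets in hepatocytes, was at 240.0, 307 and 196 CPM in LC + MI against 1434, 924 and 1176 CPM in HMRKO + MI (4.76-fold, adjusted p = 0.000235). Pnpla2, the triglyceride lipase of the droplet, was at 52.2, 58.2 and 57.3 and then 132, 122.9 and 143 CPM, and Plin5 rose 2.04-fold. The levels within each group lay close together for Pnpla2. Of 23 lipid droplet and lipase genes, 7 rose and 2 fell (5 and 1 without LC + MI replicate 1). In fatty acid oxidation and ketogenesis 9 of 40 rose and 0 fell, but 4 without LC + MI replicate 1. Cpt1a, which admits fatty acids to mitochondria, was at 128, 138 and 125 and then 297, 269 and 455 CPM (2.61-fold), and Ppara, the nuclear receptor of the fasting liver and a known activator of Fgf21, rose 2.198-fold from 11.4, 14.1 and 11.52 to 27.1, 22.6 and 31.8 CPM.

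Fatty acid synthesis showed no single direction, 3 of 24 higher and 4 lower (0 and 2 without LC + MI replicate 1). Acss2, which activates acetate, fell 3.68-fold, Acaca, acetyl-CoA carboxylase, rose 1.78-fold (adjusted p = 0.0585 without LC + MI replicate 1 and 0.0526 without HMRKO + MI replicate 1), and Fasn was at 273 ± 35.0 and 363 ± 69.5 CPM (adjusted p = 0.384). Abca1, which exports cholesterol to high density lipoprotein, was at 64.4, 69.9 and 73.5 CPM in LC + MI against 295, 181 and 224 CPM in HMRKO + MI (3.37-fold, adjusted p = 0.000235), with no overlap. Apoa5 rose 1.81-fold. In bile acid metabolism Baat, the conjugating enzyme, rose from 159.9, 192 and 175 to 368, 351 and 361 CPM, whereas Abcb11, the bile salt export pump, fell from 459.9, 161 and 238 to 31.2, 72.6 and 78.1 CPM (4.72-fold lower). Cyp7a1, the rate-limiting enzyme of bile acid synthesis, was at 6.91, 15.1 and 29.7 and 10.7, 7.27 and 9.49 CPM (adjusted p = 0.219).

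Among genes known to respond to corticosteroids, those past the test were higher in the livers without hepatocyte MR. Of 25 tested, 12 rose and 0 fell, with a median log2 fold change of 1.05 (9 and 0 without LC + MI replicate 1, 11 and 1 with the GC trend taken out). Klf9, a transcription factor, was at 4.06, 5.87 and 5.99 CPM in LC + MI against 15.3, 15.8 and 23.7 CPM in HMRKO + MI (3.43-fold, adjusted p = 0.000823). Sgk1, a kinase and a classical target of MR and of the glucocorticoid receptor, was at 6.06, 9.17 and 7.16 and then 27.5, 14.4 and 16.9 CPM (2.61-fold, adjusted p = 0.00550). Zbtb16, a transcriptional repressor, was at 4.76, 6.67 and 8.51 and then 25.5, 18.6 and 20.5 CPM. In all 3 genes the HMRKO + MI livers were above all LC + MI livers, although Zbtb16 did not pass without LC + MI replicate 1 (adjusted p = 0.0684) or HMRKO + MI replicate 1 (0.0527). Cebpd rose 2.32-fold and Cdkn1a, the p21 inhibitor of the cell cycle, 4.37-fold, the latter with 182, 49.2 and 61.4 CPM in HMRKO + MI against 15.3, 22.3 and 29.1 in LC + MI (2.49-fold without HMRKO + MI replicate 1).

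Other genes of the list did not pass. Tsc22d3, which encodes the glucocorticoid-induced leucine zipper, was at 84.7 ± 7.62 and 58.4 ± 9.19 CPM (adjusted p = 0.0772), and Fkbp5, another steroid receptor cochaperone, at 80.6 ± 21.2 and 138 ± 35.8 CPM (adjusted p = 0.122). Scnn1a, which was in no list and was chosen after its values were seen, encodes a subunit of the epithelial sodium channel that MR controls in the kidney. It fell from 81.5, 56.8 and 69.5 CPM to 23.9, 21.9 and 28.4 CPM (adjusted p = 0.000881). The full palindrome of the glucocorticoid response element, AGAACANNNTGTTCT, to which MR also binds, was in the promoter windows of 2 of the 10565 genes (0.0189%), of which Sgk1 was 1, and in 1 of the 22 promoters of this list. In Sgk1 it starts 189 bases before the start of the gene, and the stretch chr10:21993681-21993735, plus strand, is shown with it in capitals.
Sgk1: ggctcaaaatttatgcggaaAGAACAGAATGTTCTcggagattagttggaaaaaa

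Of 22 AP-1 and immediate early genes, 11 rose and 0 fell (7 and 0 without LC + MI replicate 1). Klf10, a zinc finger factor, was at 8.16, 13.95 and 11.2 and then 66.6, 50.2 and 23.9 CPM and Fosl2 rose 1.82-fold, while Fos was at 1.25, 4.34 and 0.346 and 1.90, 1.10 and 0.710 CPM (adjusted p = 0.444) and Myc at 10.2, 4.38 and 4.43 and 13.5, 6.10 and 7.76 CPM (adjusted p = 0.662). Of 38 nuclear receptors, 5 rose and 8 fell (5 and 7 without LC + MI replicate 1). Besides Nr3c2 the falls included Nr1i3, the constitutive androstane receptor, from 789, 547 and 728 to 291, 299 and 307 CPM, Nr1h5 (3.58-fold lower) and Rara (2.45-fold lower), and the rises included Ppara and Nr2c2, the testicular receptor TR4 (2.91-fold).

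Of the drug metabolism and transport lists, glutathione S-transferases and organic ion transporters were lower more often than higher, beside the 16.2% of all genes that fell. The other lists of this kind are given here and further on. Cytochromes P450, UDP-glucuronosyltransferases and ABC transporters also had more falls than rises. Sulfotransferases, amino acid transporters and genes of zinc and metallothionein had more rises than falls. Glutathione S-transferases fell in 7 of 22 and rose in 0 (5 and 0 without LC + MI replicate 1), with Gsta3 at 215, 199.9 and 245 CPM in LC + MI against 66.9, 74.9 and 128 CPM in HMRKO + MI. Organic ion transporters fell in 8 of 23 and rose in 2 (4 and 2 without that liver). Slc47a1, the proton exchanger that exports organic cations, was at 191, 101 and 157 CPM and then 18.4, 20.96 and 31.2 CPM, 6.36-fold lower (adjusted p = 0.000235), and Slc22a30 fell 5.24-fold. In Slc47a1 the lowest LC + MI liver was still well above the highest HMRKO + MI liver. Among cytochromes P450 of families 1 to 3, Cyp2c54 fell by 2.32 on the log2 scale in a list with 3 of 42 higher and 7 lower, reduced to 2 and 2 without LC + MI replicate 1. Sult1e1, the estrogen sulfotransferase, rose from 0.801, 9.65 and 11.4 to 46.5, 51.2 and 30.9 CPM. Of the genes of growth hormone and STAT5, Igfals, which carries insulin-like growth factor in plasma, fell 3.63-fold, while Igf1 (803 ± 41.6 and 659 ± 2.72 CPM, adjusted p = 0.242) and the receptor Ghr (187 ± 3.94 and 193 ± 19.95 CPM, adjusted p = 0.841) did not pass.

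Interferon-stimulated genes, which cells use against viruses, passed the test only as falls. Of 40 tested, 19 fell and 0 rose, with a median log2 fold change of -0.79 (20 and 0 with the GC trend taken out, 11 and 1 without LC + MI replicate 1). Isg15, a ubiquitin-like protein, was at 10.8, 7.16 and 8.72 CPM in LC + MI against 4.47, 3.10 and 3.76 CPM in HMRKO + MI (2.36-fold lower, adjusted p = 0.00326). Ifit1, a sensor of foreign RNA, was at 7.91, 3.54 and 3.36 and then 1.34, 0.986 and 1.73 CPM, and Irf7, the transcription factor of the response, at 36.0, 24.1 and 25.8 and then 12.6, 14.1 and 14.01 CPM. The groups did not overlap in these 3 genes. Rtp4 fell 2.95-fold, Oasl1 2.75-fold, Ddx58, the RNA sensor RIG-I, 1.81-fold and Ifi35 1.72-fold. The signal transducer Stat2 fell as well (log2 fold change -1.10, adjusted p = 0.0129), but not past the test without LC + MI replicate 1 (adjusted p = 0.0600). After sham operation Isg15 was at 14.1 ± 4.38 CPM in LC and 12.5 ± 1.48 CPM in HMRKO.

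Many genes of this kind are known to carry the interferon-stimulated response element, here searched as GAAANNGAAA on both strands and found in 3.81% of all promoters. The table held 72.5% of the list, and the element was in 19 of these 29 promoters (65.5%). Among members past the test it was in 8 of 15 (53.3%). The share describes the list and not its change. The elements of Isg15 (chr4:156200867-156200916, minus strand), Ifit1 (chr19:34640765-34640814, plus strand) and Ifit3 (chr19:34583353-34583402, plus strand) are printed in capitals. Ifit3 fell 2.73-fold.
Isg15: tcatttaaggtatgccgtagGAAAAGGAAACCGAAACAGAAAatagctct
Ifit1: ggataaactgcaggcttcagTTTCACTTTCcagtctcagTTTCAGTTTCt
Ifit3: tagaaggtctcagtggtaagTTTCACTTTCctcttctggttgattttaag

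Of 25 MHC genes, 4 fell and 0 rose, with 1 fall left without LC + MI replicate 1, and H2-K1 was at 1227 ± 54.5 and 1223 ± 73.5 CPM (adjusted p = 0.982). Psmb10, a subunit of the immunoproteasome, fell 2.205-fold. Among 31 chemokines and receptors, 6 fell and 3 rose (5 and 2 without that liver), with Ccl27a at 25.9, 9.41 and 10.4 CPM in LC + MI against 1.57, 1.86 and 1.88 CPM in HMRKO + MI (8.52-fold lower, 5.57-fold without that liver) and Cxcl11, an interferon-induced chemokine, 3.44-fold lower. In interleukin-6, JAK and STAT3 signaling 8 of 33 rose and 5 fell (6 and 2 without that liver), including rises of the phosphatases Ptpn2 (1.85-fold) and Ptpn11 (1.69-fold) and a fall of Il11ra1 (2.16-fold lower). Socs3, the feedback inhibitor of STAT3, was at 86.0, 55.0 and 52.7 CPM in LC + MI against 113, 175 and 117 CPM in HMRKO + MI, groups apart but with an adjusted p of 0.0854. Il1r1, the interleukin-1 receptor, rose from 106, 122 and 135 to 683, 383 and 422 CPM (4.11-fold), and the tumor necrosis factor receptors Tnfrsf1a and Tnfrsf1b rose 1.77-fold and 1.73-fold. Nlrp6, a cytosolic immune sensor, fell from 809, 347 and 506 CPM to 32.9, 76.5 and 88.3 CPM.

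Markers of other cell types were examined because the samples were whole livers. Of 20 neutrophil markers 12 were tested and 6 rose, with 0 falls and a median log2 fold change of 1.10 (4 rose without LC + MI replicate 1). Retnlg was at 0.100, 1.53 and 0.415 CPM in LC + MI against 6.38, 4.24 and 3.96 CPM in HMRKO + MI (6.94-fold, 17.2-fold without LC + MI replicate 2), and S100a9 at 3.01, 6.92 and 3.22 and then 11.52, 12.0 and 10.7 CPM, whereas S100a8 did not pass (adjusted p = 0.0798), nor did S100a9 without LC + MI replicate 1 (0.0610) or 3 (0.0544). The summed level of the list, which Lcn2, a gene that hepatocytes also express, dominates, was 4463 to 5177 CPM in LC + MI against 4980 to 9004 CPM in HMRKO + MI. The part of neutrophils in the acute-phase rises was not tested. Of 29 lymphocyte markers 15 were tested and 3 fell, all at under 1 CPM (summed level 13.2 to 18.3 CPM in LC + MI against 8.58 to 10.5 CPM in HMRKO + MI), and 1 fell without LC + MI replicate 1. Their part in the lower interferon-stimulated genes was not tested.

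Kupffer cell and macrophage markers (1 of 23 higher, 1 lower), sinusoidal endothelial markers (1 of 25 higher, 2 lower), stellate cell markers (2 of 20 each way) and cholangiocyte markers (1 of 12 lower) passed no more often than all genes did. Their summed levels overlapped between the groups. Hepatocyte markers rose in 6 of 25 and fell in 0 (4 and 0 without LC + MI replicate 1). Alb was at 34841, 38353 and 45312 CPM in LC + MI against 43869.9, 38982 and 38699 CPM in HMRKO + MI (adjusted p = 0.911).

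Matrix genes fell in 22 of 77 and rose in 8 (16 and 6 without LC + MI replicate 1). Col27a1, a fibrillar collagen, was at 275, 163 and 185 CPM in LC + MI against 31.8, 26.0 and 23.2 CPM in HMRKO + MI (7.70-fold lower, adjusted p = 0.000661), and Mmp15, a membrane-bound matrix protease, fell 5.11-fold. In Col27a1 all LC + MI livers lay above all HMRKO + MI livers. Col4a1, of basement membranes, rose from 13.9, 24.6 and 16.1 to 45.7, 39.3 and 38.6 CPM. Col3a1, the collagen of stellate cells and fibroblasts, fell 2.43-fold, but its adjusted p was 0.0702 without LC + MI replicate 1 and 0.0578 and 0.0648 without HMRKO + MI replicates 2 and 3.

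Among stress and growth lists, hypoxia targets rose in 10 of 26 and fell in 3 (6 and 2 without LC + MI replicate 1). Hif1a, the hypoxia-inducible factor itself, was at 6.71, 9.01 and 8.75 and then 21.8, 17.4 and 25.2 CPM (2.62-fold, adjusted p = 0.00129), whereas Vegfa, its best-known target, fell 1.57-fold (adjusted p = 0.0593 without LC + MI replicate 3 and 0.0571 without HMRKO + MI replicate 2). Hmox1, heme oxygenase-1, rose 3.37-fold, but only 3 of 30 targets of the antioxidant factor NRF2 rose and 2 fell. Bbc3, which encodes the cell death protein PUMA, fell from 8.16, 6.75 and 7.44 to 2.07, 2.92 and 2.89 CPM, and Btg2, another p53 target, rose 2.43-fold, in a list with 5 of 29 higher and 3 lower (2 and 1 without that liver). Of 39 hepatokines, 8 rose and 8 fell (5 and 6 without that liver), and Gdf15, like Fgf21 a hormone of cell stress, was at 3.16, 4.22 and 5.57 CPM in LC + MI against 9.004, 3.10 and 1.88 CPM in HMRKO + MI (adjusted p = 0.922).

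Periportal genes rose in 6 of 19 and fell in 1, and pericentral genes rose in 2 of 22 and fell in 5 (4 and 0, and 0 and 1, without LC + MI replicate 1). Notum, a Wnt inhibitor of pericentral hepatocytes, was at 22.3, 11.2 and 11.52 and then 1.34, 2.78 and 4.11 CPM. In the clock list 3 of 22 rose and 2 fell, with Usp2 2.91-fold lower and Per1, which glucocorticoids also induce, at 13.6, 47.2 and 53.5 CPM in LC + MI against 99.0, 76.5 and 74.5 CPM in HMRKO + MI. Per1 did not pass the test with only the 6 livers in the fit (adjusted p = 0.0751) or without HMRKO + MI replicate 1 (0.0852) or 2 (0.0512).

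Of the remaining lists, ABC transporters fell in 12 of 40 (16.2% of all genes fell) and rose in 6, but fell in 5 and rose in 3 without LC + MI replicate 1. Lysosome and autophagy genes rose in 7 of 42 and fell in 2 (5 and 2 without LC + MI replicate 1), proteasome subunits in 5 of 38 and 2 (3 and 1), and genes of zinc and metallothionein in 6 of 24 and 2 (2 and 1). NF-kB and feedback genes rose in 5 of 28 and fell in 3 (4 and 1), amino acid transporters in 6 of 30 and 5 (4 and 1) and apolipoprotein genes in 3 of 25 and 4 (2 and 4). Sulfotransferases rose in 3 of 8 and fell in 1 (2 and 0), hepatocyte transcription factors in 3 of 22 and 2 (3 and 1), bile acid genes in 3 of 27 and 4 (2 and 2), cell cycle genes in 2 of 31 and 4 (0 and 2) and genes of growth hormone and STAT5 in 4 of 31 and 6 (2 and 4). UDP-glucuronosyltransferases fell in 2 of 18 (1 without that liver) and rose in 0. Erythroid and platelet markers rose in 2 of 8 and muscle genes fell in 1 of 5, both with 0 calls without that liver, and of 15 pancreas and kidney genes the 1 that was tested did not pass.

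Whether the genotype difference depended on the operation was tested as the interaction in the fit over the 12 livers. The interaction was called for 565 genes (3.96%) in the direction of higher in HMRKO after MI and for 876 genes (6.14%) in the direction of lower. Without LC + sham replicate 2 these counts were 292 and 514, and without LC + MI replicate 1 they were 341 and 532. It was past an adjusted p of 0.05 for 364 of the 653 genes called higher after MI and 658 of the 1109 called lower. Both tests use the 6 MI livers. At any difference 6.74% of all genes passed in the direction of higher and 8.5% in that of lower. For Fgf21 the interaction was 2.51 ± 0.70 on the log2 scale (adjusted p = 0.0323), for Lepr 5.59 ± 0.97 (adjusted p = 0.00769), for Slc47a1 -3.25 ± 0.37 (adjusted p = 0.00378) and for Plin2 2.08 ± 0.31 (adjusted p = 0.00537). Sham levels of Fgf21 are given above. In the sham livers Lepr was at 1.66 ± 1.17 CPM in LC and 0.615 ± 0.181 CPM in HMRKO (adjusted p = 0.898), Slc47a1 at 133 ± 25.2 CPM in LC + sham and 199 ± 34.8 CPM in HMRKO + sham, and Plin2 at 184 ± 30.4 and 207 ± 37.5 CPM. For Nr3c2 the interaction was -0.48 ± 0.38 (adjusted p = 0.408), and for Serpina3i, Cidec and Hmgcs1 it did not pass either (adjusted p = 0.142, 0.222 and 0.164). Nor did it pass for Rgs16 (adjusted p = 0.108) or Selenbp2 (adjusted p = 0.148). For Il6ra it was 1.30 ± 0.18 (adjusted p = 0.00405), and here the sham livers differed, at 39.5 ± 3.003 CPM in LC + sham against 20.3 ± 1.76 CPM in HMRKO + sham (log2 fold change -0.96, adjusted p = 0.0415).

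**Figure D5:**
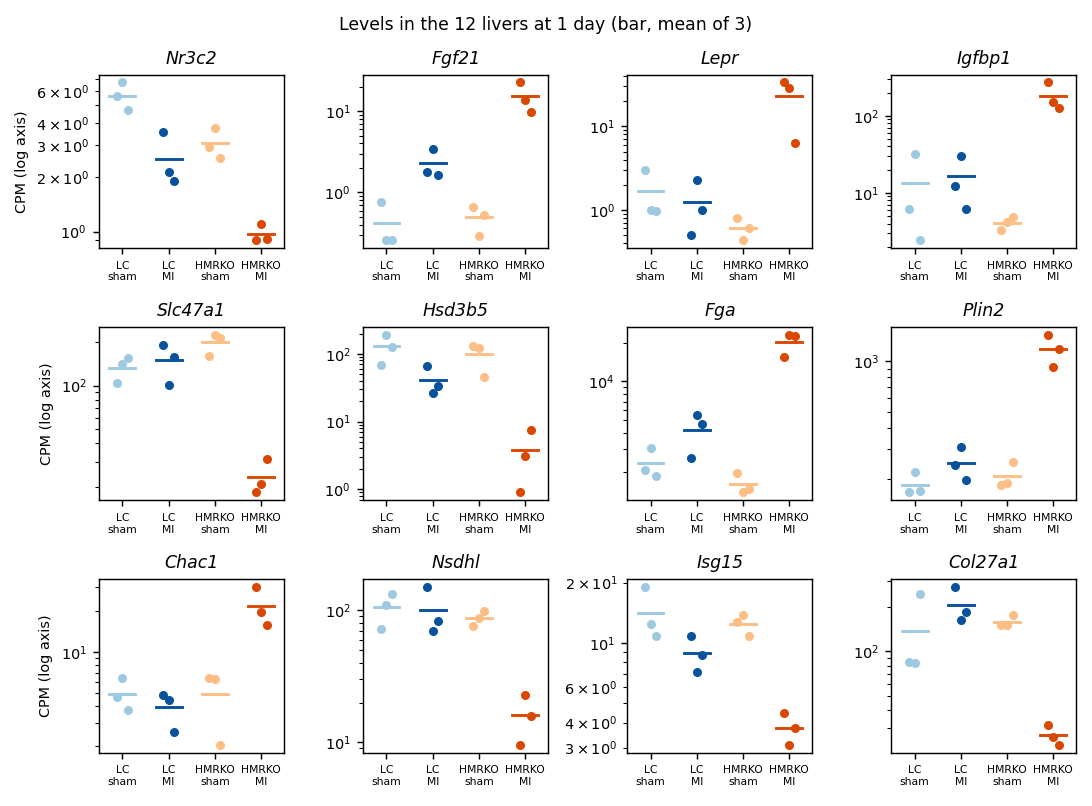
Levels of 12 genes in the 12 livers at 1 day, in CPM on a log axis, with 1 point per liver and a bar at the mean of 3. For Nr3c2 the HMRKO livers lay below the LC livers after either operation, and in the other 11 genes the HMRKO + MI livers stand apart from all 9 others.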

How the data were processed

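Total RNA of whole mouse livers was sequenced from TruSeq libraries. The deposited counts are whole-number reads per gene that the authors made from their reads. The submitters' processing notes name HISAT2 2.1.0, Bowtie2 2.2.3, TopHat2, DESeq2 and the genome build mm9, while the gene identifiers come from a later annotation, so no coordinates were taken from the files. The labels state flash freezing and the study RNAlater. Total counts were 19098704 to 28945526 per liver after MI, and intervals and SE cover counting error and the spread between livers, not the effect of preparation. The table of 6 livers from another experiment at 12 h was not used here, and 0 columns of other samples were left out.

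Genes were kept by filterByExpr (minimum count 10, minimum total 15), scaled by TMM, and tested with the quasi-likelihood test of edgeR 4.0.16 (limma 3.58.1, R 4.3.3) in a fit of the 12 livers at 1 day, with Benjamini-Hochberg adjustment over all 14266 genes. Adjusted p-values throughout come from this fit unless another is named. Calls needed a log2 fold change beyond 1 and an adjusted p under 0.05, and members of a list were counted at any fold change. CPM are counts divided by the TMM-scaled library size, and fold changes are fitted. The edgeR test of HMRKO + MI versus LC + MI was also run on simulated counts. The interaction, the alternative fits and the promoter search were not. Replicates were taken from the sample titles.

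The 64 gene lists, the comparison and the genes named were chosen with earlier results of these data known, so that no count is independent support. Genes were named if they belong to the MR and FGF21 axis, were among the 12 largest rises or falls (groups apart, mean of at least 10 CPM, no clone name) or the 10 largest gains or losses in CPM, were among the 4 members of a list with the smallest p, or define a list. Scnn1a, Insig1, Irf7, Stat2 and Zbtb16 were added after their values were seen. A few genes that the rule names are not reported here. Genes with near-identical copies are uncertain. Promoters (RefSeq, GRCm38.p6) were matched by symbol to 10565 of the 14266 genes. Alternatives were other scaling, filters, DESeq2 1.42.0, limma voom, the 6 livers alone, a replicate block, each liver left out and, chosen after the data were seen, removal of the GC trend.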

Additional observations from a re-analysis of the deposited data

Results flagged for a closer look

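Each gene here was named in the report and had a genotype difference that depended on the operation, as an interaction past an adjusted p of 0.05 in edgeR over the 12 livers at 1 day. Of 185 genes named, 126 were past it, at any difference, as were 6.74% of all genes in the positive direction and 8.5% in the negative. Many of the 185 were named for a large fold or small p after MI, and the interaction uses the same MI livers. The share of named genes past it is therefore raised by the choice and cannot be compared with that of all genes. Values are the HMRKO-minus-LC log2 fold change after MI minus that after sham operation. The sign is positive where the HMRKO livers were relatively higher after MI.

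Fgf21 had an interaction of 2.51, and of the genes of its axis Stat3 had 0.88 and Tbl1xr1 1.05. Il6ra (1.30) and mt-Co1 (-1.54) passed the interaction although they did not pass the test after MI, and Il6ra was lower in HMRKO + sham than in LC + sham. The ATF4 targets were at 4.12 for Asns, 2.50 for Chac1, 2.31 for Mthfd2, 1.48 for Trib3, 1.42 for Pck2 and 1.00 for Gars. Among chaperone genes the values were 1.74 for Hspa5, 1.51 for Hsp90b1, 1.30 for Xbp1, 0.68 for Derl1 and 1.31 for Hspa9, with negative values of -2.29 for Fkbp4, -1.55 for Hsph1 and -0.82 for Stip1. The genes of protein synthesis were at 1.57 for Ddx21, 1.34 for Ltv1, 1.07 for Eif2b3, 0.91 for Eif2b4, 0.82 for Eif3d, 1.47 for Iars and 1.17 for Lars. Mitochondrial genes were negative, with -0.81 for Ndufa13, -1.22 for Mrps21 and -1.95 for mt-Rnr1.

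Among secreted plasma proteins the values were 2.79 for Fga, 1.86 for Fgb, 2.42 for Fgg, 1.28 for Saa1, 1.19 for Saa2, 1.88 for Serpina3m, 1.52 for Serpina3n and 1.87 for Steap4. Complement and kallikrein genes were at 1.18 for Masp1, 1.09 for C4bp, -1.53 for C1s1 and -2.35 for Klkb1. Immune signaling genes were at 2.73 for Il1r1, 0.90 for Tnfrsf1a, 0.89 for Tnfrsf1b, 0.71 for Ptpn2, 0.72 for Ptpn11 and -1.18 for Il11ra1. Interferon-stimulated and antigen-processing genes were negative, with -1.06 for Isg15, -1.63 for Rtp4, -1.38 for Oasl1, -0.74 for Ifi35, -1.37 for Psmb10 and -2.25 for Cxcl11, as were Nlrp6 (-3.36) and Ccl27a (-3.26).

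In glucose metabolism the values were -1.83 for Pfkfb1, -1.79 for Ppp1r3b, -1.80 for Gcgr, 1.36 for Ldha, 1.99 for Gpt2 and 2.19996 for Tat. Nitrogen genes were at 1.60142 for Arg1, 1.39 for Ass1, 1.45 for Cps1, 1.49 for Mat1a, 1.56 for Aass and -2.03 for Amt. Cholesterol synthesis and SREBP genes were negative, with -2.38 for Nsdhl, -2.12 for Dhcr7, -1.66 for Mvk, -1.58 for Insig1, -1.20 for Srebf1 and -1.86 for Acss2, against 1.00 for Acaca. Fat storage and oxidation genes were at 2.08 for Plin2, 1.28 for Plin5, 1.22 for Pnpla2 and 1.26 for Cpt1a. Lipoprotein and bile acid genes were at 2.07 for Abca1, 0.72 for Apoa5, 1.01 for Baat and -2.08 for Abcb11.

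Corticosteroid-responsive genes were positive, with 5.20 for Igfbp1, 2.17 for Klf9, 1.80 for Sgk1, 2.45 for Zbtb16, 1.47 for Cebpd and 2.58 for Cdkn1a, and Scnn1a was at -1.64. Nuclear receptors were at -1.58 for Nr1i3, -1.93 for Nr1h5, -1.45 for Rara and 1.48 for Nr2c2. Transport and detoxification genes were at -3.25 for Slc47a1, -2.37 for Slc22a30 and -2.30 for Cyp2c54. Stress, zonation and clock genes were at 1.73 for Hif1a, -1.03 for Vegfa, 1.99 for Hmox1, -1.77 for Bbc3, 1.42 for Btg2, -2.62 for Notum, -1.75 for Usp2 and -2.19 for Igfals. Collagen and matrix genes were at -3.16 for Col27a1, -3.78 for Col5a3, 1.44 for Col4a1 and -2.38 for Mmp15.

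The other genes with the largest rises were at 5.59 for Lepr, 3.37 for Bmper, 3.76 for Egr1, 2.89 for Slc34a2, 2.35 for Gpcpd1 and 2.57 for Pspc1. Those with the largest falls were at -5.72 for Hsd3b2, -4.02 for Hsd3b3, -3.06 for Hsd3b5, -3.16 for Apol9a, -3.90 for Apol9b, -4.45 for Mapk15, -4.09 for Keg1, -3.81 for Tk1 and -3.19 for Adrb3, and those with large losses in CPM at -1.51 for Reep6, -1.52 for Tmem205 and -2.07 for Sema4g.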

How the results depend on the processing

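Of 151 named genes past the test in HMRKO + MI versus LC + MI, 0 reversed under any alternative run and 142 kept it without LC + MI replicate 1, 146 without HMRKO + MI replicate 1 and 150 with only the 6 livers in the fit. All 151 kept it with other size factors, DESeq2, limma voom and the GC trend taken out. Many of these genes were named for a large fold or small p in this comparison, so these counts do not describe genes at large. Over all genes, 1195 were higher and 1369 lower at any fold change without LC + MI replicate 1, against 2089 and 2311 with it. With 1 liver left out, the genes called higher numbered 417 to 775 and those lower 636 to 1235, both lowest without LC + MI replicate 1. For the interaction they numbered 292 to 674 and 514 to 1026, both lowest when LC + sham replicate 2 was left out (341 and 532 when LC + MI replicate 1 was, and 364 higher when HMRKO + sham replicate 2 was). At any fold change 2089 genes were higher and 2311 lower, with 962 higher for the interaction, and at a log2 fold change beyond 2 these were 116, 291, 114 and 283 (interaction lower). Limma voom called 657 and 1059 genes, of which 448 and 809 were shared, and DESeq2 703 and 1158. Of 128 list counts, 67 stayed within 1.5 times without LC + MI replicate 1, 68 with limma voom, 82 to 89 without an HMRKO + MI replicate and 114 with the GC trend taken out. Of the 64 lists, the balance of rises and falls turned in 0 to 5 under each alternative, most often without HMRKO + MI replicate 1 or 2, and in 2, complement and cytosolic ribosomal proteins, without LC + MI replicate 1. The sign of a list's median changed in 0 to 8. The causes were not tested. With replicate number as a block, 643 and 1055 genes were called after MI and 511 and 812 for the interaction. Whether the numbers pair the livers was not tested. Deviations of same-numbered livers after MI correlated at 0.0176, 0.0658 and 0.0725, each the best match of its LC + MI liver. After sham operation they correlated at -0.171, -0.0984 and -0.0372. With 3 livers a group and a coefficient of variation of 0.209, a difference that missed the test is not shown to be absent.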
